A study of Homo sapiens with 22 samples.

Results

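Genes that make microRNAs or carry out silencing by them were followed in human cells in which the RNA made before a chase was tracked as it decayed. They were chosen by name: DROSHA, DGCR8, XPO5, DICER1, AGO1, AGO2, AGO3, TNRC6A, TNRC6B and TNRC6C, 10 of 19578 genes with a protein-coding row in the count files. Each gene was read from the protein-coding transcript with the highest mean count, and the 10 genes held 110 of 227264 transcript rows. All 10 passed the filter on low counts, a mean of at least 1 CPM, a row's counts scaled to a common library size.

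The study followed HEK293T cells, a line from human embryonic kidney, that expressed a control hairpin RNA (shControl) or a hairpin RNA that targets ZNF598 (shZNF598). ZNF598 is the ubiquitin ligase that marks collided ribosomes. Both cell populations were given 150 µM bromouridine (BrU) for 24 h, so that RNA made in that time carried BrU, and were then kept without it for between 0 and 24 h. BrU-labelled RNA was pulled down with an antibody and sequenced (BRIC-Seq), with 2 libraries per shRNA at each of 0, 2, 4, 6 and 10 h of chase and 1 per shRNA at 24 h. The labels name 1 ZNF598 group without saying whether it is a clone, and they do not say whether replicate libraries came from separate cultures, so the tests measure the spread between libraries.

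MicroRNAs are cut from long primary transcripts in the nucleus by the microprocessor, which joins the nuclease DROSHA with the RNA-binding protein DGCR8. XPO5 (exportin 5) carries the resulting hairpin to the cytoplasm, where DICER1 cuts it to the short duplex. An Argonaute protein takes up 1 strand, pairs with target mRNAs, and through the GW182 scaffold proteins TNRC6A, TNRC6B and TNRC6C recruits the CCR4-NOT deadenylase, which shortens poly(A) tails and leads to mRNA decay. DGCR8 mRNA is also a substrate of the microprocessor, which cuts hairpins in its own exons.

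Sequences are shown where a member's own transcript is a source of microRNA or carries a decay element. RefSeq (GRCh38.p14) places 3 mature microRNAs in exon 2 of the DGCR8 transcript read here, on the same strand as the gene, and 2 in an intron of DICER1. The capitals mark the seed, bases 2 to 8, which pairs with targets, and no seed is shared between these microRNAs. The first lies in the 5′ UTR of DGCR8 and the next 2 in its coding sequence.
hsa-miR-3618 (chr22:20085797-20085818, + strand): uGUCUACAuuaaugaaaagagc
hsa-miR-1306-5p (chr22:20086072-20086093, + strand): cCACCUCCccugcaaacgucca
hsa-miR-1306-3p (chr22:20086112-20086129, + strand): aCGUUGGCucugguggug
hsa-miR-3173-3p (chr14:95137923-95137944, - strand): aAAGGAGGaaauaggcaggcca
hsa-miR-3173-5p (chr14:95137961-95137982, - strand): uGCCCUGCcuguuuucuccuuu

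AGO1, AGO2, AGO3 and TNRC6B have very long 3′ UTRs. In the GENCODE release 44 annotation these spanned 10925 nt in AGO1, 11888 nt in AGO2, 16755 nt in AGO3 and 12567 nt in TNRC6B, whereas the median over 10666 genes was 1454 nt and 1.77% of genes exceeded 9000 nt. Among the other members with an exact transcript match, the 3′ UTR was 2414 nt in TNRC6A, 1764 nt in DGCR8, 1534 nt in XPO5 and 935 nt in DROSHA. The DICER1 transcript matched only with its version ignored, and the 3′ UTR of the annotated version was 4254 nt. The TNRC6C model in the files differed in length from the annotated one and is not described. The AU-rich nonamer ATTTATTTA, a class of element known for mRNA destabilization, was searched on the transcript strand. It occurred once in the 3′ UTR of AGO1 and once in that of AGO3, and in no other of the 8 exactly matched members. Of the 10666 genes, 7.98% held it, but 45.0% of the 189 genes with a 3′ UTR of at least 9000 nt did, so its presence in long UTRs is common. The capitals mark the nonamer in each window of 30 bases.
AGO1, base 9382 of the 3′ UTR: cttgaagctcATTTATTTAttcacctatct
AGO3, base 3963 of the 3′ UTR: tagctgctatATTTATTTAagtagattctg

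The transcripts were located on GRCh38 as follows. DROSHA (ENST00000511367.6) lies on chr5:31400497-31532061, DGCR8 (ENST00000351989.8) on chr22:20080241-20111872, XPO5 (ENST00000265351.12) on chr6:43522334-43576038 and DICER1 (ENST00000526495.5) on chr14:95086244-95158010. AGO1 (ENST00000373204.6) on chr1:35883209-35930532 and AGO3 (ENST00000373191.9) on chr1:35931105-36072500 are neighbours on the same strand, and AGO2 (ENST00000220592.10) lies on chr8:140520156-140635633. TNRC6A (ENST00000315183.11) lies on chr16:24729695-24826221, TNRC6B (ENST00000335727.13) on chr22:40177942-40335808 and TNRC6C (ENST00000588061.5) on chr17:78048913-78104940. For DICER1 and TNRC6C, the span given is that of the annotated version, which differs in length from the version counted. The annotated lengths were 10315 nt for DICER1 and 5318 nt for TNRC6C, against 10332 and 8418 nt for the versions counted. The spans of the counted versions are not given here. Genes on the opposite strand overlap DGCR8 (TRMT2A), XPO5 (POLR1C), DICER1 (DICER1-AS1) and TNRC6C (TMC6). The libraries were stranded, but the strand setting of the counting is not given in the sources used here.

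The targeted gene was checked first. ZNF598 measured 4.05 to 8.55 CPM in the 10 shControl libraries of 0 to 10 h and 0.419 to 1.07 CPM in the 10 shZNF598 libraries, with a log2 difference of -3.05 ± 0.09 (SE, adjusted p = 1.17e-18). Counts per library totalled 52352359 to 96963584 at 0 to 10 h, and 21220829 and 40157613 at 24 h, over rows in which a read of overlapping isoforms can count more than once. Of the markers listed for HEK293T cells, LIN28B had a median of 30.6 CPM, INA 13.2 and NEFM 1.16, and PAX2 only 0.039, while CD3E and HBB were at 0 in every library and ALB, PTPRC and MYOD1 did not exceed 0.108 CPM. COL1A1 had a median of 1.01 CPM. The replicates of shControl at 0 h stood further apart than any others, with a chi-square per degree of freedom of 27.3 against 2.26 to 16.5 in the other groups. All 10 members were higher in replicate 1 of that group, by a median of 0.55 on the log2 scale, against 51.5% of all gene rows and 84.2% of the 3201 gene rows over 5000 nt, whose median difference was 0.28. Transcript length moved with this spread, and its part in the results was not tested. Results that turn on either library are given below without it.

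**Figure D1:**
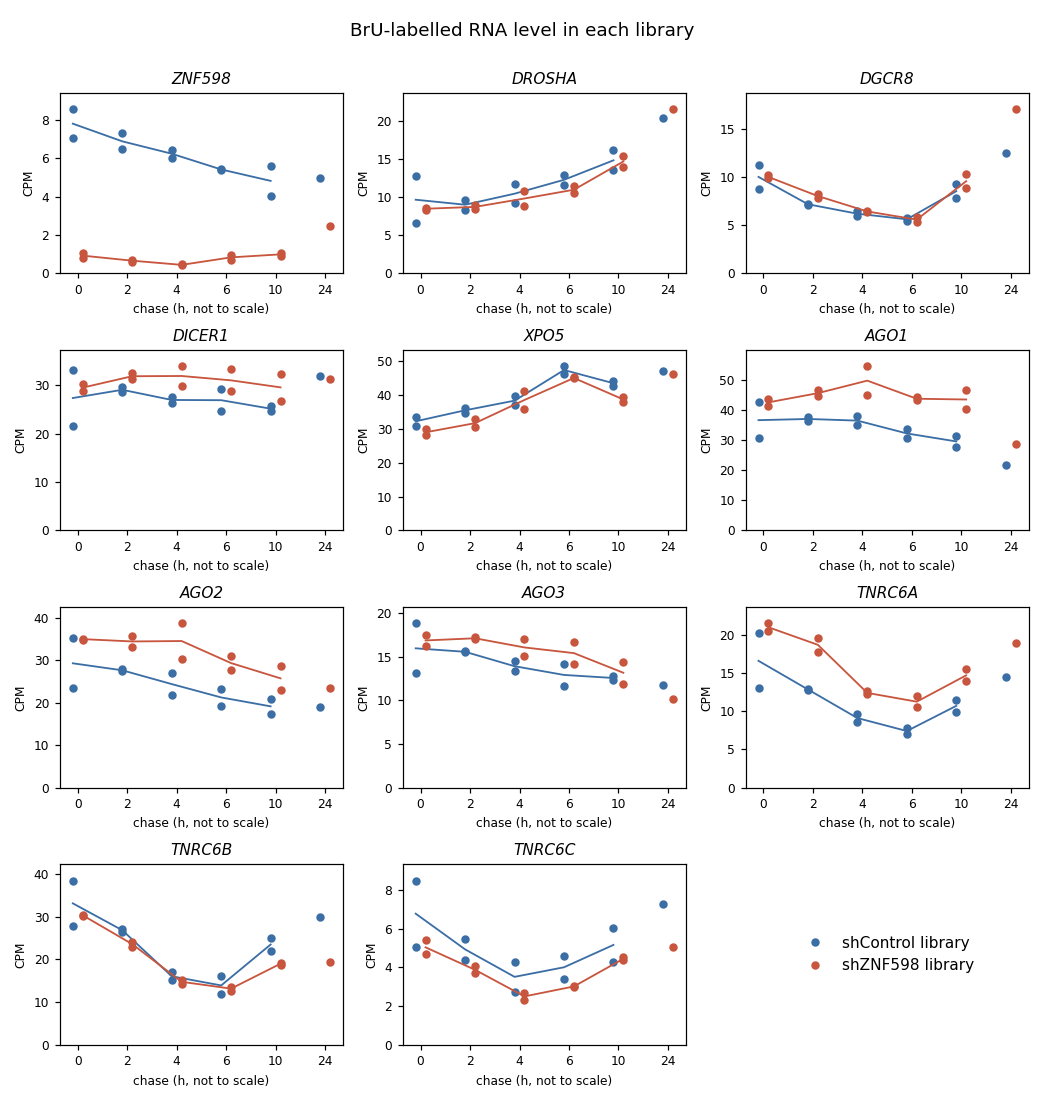
BrU-labelled RNA of ZNF598 and the 10 member genes in each library, in CPM on the y axis, against hours of chase on the x axis (times evenly spaced). Each point is 1 library, blue for shControl and red for shZNF598, and the lines join the means of 2 libraries at 0 to 10 h. TNRC6A lay higher in both shZNF598 libraries at all 5 of those times, and DGCR8, TNRC6A, TNRC6B and TNRC6C dipped at 4 to 6 h and stood higher at 10 h.

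Per kilobase of transcript, XPO5 was the most abundant member at 0 h and AGO3 and TNRC6C the least. XPO5 measured 6.06 ± 0.33 CPM per kb (SD, n = 2) in shControl cells, above every other member in both libraries. AGO1 (2.67 ± 0.62), DICER1 (2.65 ± 0.80), DGCR8 (2.23 ± 0.39), AGO2 (2.01 ± 0.57), TNRC6A (2.00 ± 0.61), TNRC6B (1.85 ± 0.42) and DROSHA (1.82 ± 0.82) followed, and each neighbouring pair in that order differed by less than its spread. AGO3 (0.811 ± 0.21) and TNRC6C (0.804 ± 0.29) were the lowest. AGO4, the fourth Argonaute and no member of the list, was at 0.732 ± 0.12 CPM per kb.
In shZNF598 cells XPO5 was again highest, at 5.45 ± 0.24 CPM per kb, and TNRC6C lowest of the members, at 0.598 ± 0.06. Across the 20 libraries the raw counts behind a value ranged from 167 to 596 for TNRC6C and from 1373 to 5191 for AGO1, so the precision for TNRC6C was the lower.

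The first question was whether the knockdown changed the labelled RNA of these genes. Averaged over the 5 chase times, TNRC6A, AGO1, AGO2 and DICER1 were higher in shZNF598 cells and TNRC6C was lower, while the other 5 members did not pass the test. Thus 4 of 10 members were called higher and 1 lower, against 12.3% and 10.1% of the 79513 transcripts tested (edgeR quasi-likelihood test, Benjamini-Hochberg adjusted p under 0.05). Among the 10731 tested genes read from 1 row each, as the members were, 15.6% were called higher and 12.1% lower in the same fit. The median log2 difference was 0.11 over the members and 0.02 over all transcripts and over the gene rows. In bulk RNA, fewer cells with a transcript and less of it per cell cannot be told apart.

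Among the GW182 scaffolds, the paralogs differed in direction. TNRC6A measured 20.2 and 13 CPM in shControl and 21.5 and 20.5 CPM in shZNF598 at 0 h. At 4 h the values were 9.58 and 8.63 against 12.6 and 12.2 CPM, and at 10 h 11.5 and 9.91 against 15.5 and 13.9 CPM. Both shZNF598 libraries lay above both shControl libraries at 5 of 5 times. How often all transcripts or gene rows separated in this way was not measured, and so few libraries can separate by chance. Counts of times without overlap, here and below, therefore describe the libraries and are not tests. The averaged log2 difference was 0.48 ± 0.07 (1.39-fold, adjusted p = 9.58e-06), the largest among the members in either direction, and the call was kept under all 28 alternatives tried. All 8 tested transcript rows of TNRC6A were called higher, by 0.46 to 0.66. Rows of 1 gene share reads, so they are not separate evidence.
TNRC6C measured 8.48 and 5.06 CPM in shControl and 5.39 and 4.67 CPM in shZNF598 at 0 h. At 4 h the values were 4.28 and 2.73 against 2.67 and 2.32 CPM, and at 6 h 4.6 and 3.4 against 3.05 and 2.97 CPM. Both shZNF598 libraries were lower at 3 of 5 times, and the groups overlapped at 0 and 10 h. The averaged difference was -0.38 ± 0.10 (0.768-fold, adjusted p = 0.0067), kept under all 26 alternatives that gave a value. All 3 tested transcript rows of the gene, which also share reads, were called lower.
TNRC6B measured 38.5 and 27.8 CPM in shControl and 30.2 and 30.5 CPM in shZNF598 at 0 h, and 25 and 22 against 18.8 and 19.2 CPM at 10 h. Its averaged difference of -0.17 ± 0.06 missed the threshold (adjusted p = 0.0512), and passed it with the replicate number as a block (-0.16, adjusted p = 0.0397), with RLE scaling (-0.17), with DESeq2 (-0.17), with no filter (-0.16) or with 1 row per gene (-0.17). It also passed without replicate 2 of shControl at 0 h (-0.21), 6 h (-0.21) or 10 h (-0.18).

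Among the Argonautes, which hold the guide strand, AGO1 and AGO2 were each higher by 0.39 on the log2 scale. AGO1 measured 42.6 and 30.5 CPM in shControl and 43.5 and 41.4 CPM in shZNF598 at 0 h. The 2 h libraries gave 37.6 and 36.3 against 44.6 and 46.4 CPM, and the 10 h libraries 31.2 and 27.8 against 46.6 and 40.2 CPM. The groups overlapped at 0 h and were apart at the other 4 times, with shZNF598 higher. The averaged difference was 0.39 ± 0.06 (1.31-fold, adjusted p = 2.05e-05).
AGO2, the Argonaute that can cut its target, measured 35.2 and 23.4 CPM in shControl and 35.1 and 34.9 CPM in shZNF598 at 0 h. At 4 h the values were 26.9 and 21.9 against 38.7 and 30.4 CPM, and at 10 h 20.9 and 17.4 against 28.6 and 22.9 CPM. Again shZNF598 was higher without overlap at 4 of 5 times, all but 0 h. The averaged difference was 0.39 ± 0.07 (1.31-fold, adjusted p = 0.000273), and the calls for AGO1 and AGO2 were kept under all 28 alternatives. All 3 tested transcript rows of AGO1 and 3 of 4 of AGO2 were called higher.
AGO3 gave a difference of 0.15 ± 0.06 that missed the threshold (adjusted p = 0.0919), with 18.8 and 13.1 against 16.2 and 17.5 CPM at 0 h and 2 of 5 times without overlap. It passed only without replicate 1 of shControl at 0 h (0.20). AGO4 went the other way. It measured 5.93 and 4.71 CPM in shControl and 4.55 and 4.24 CPM in shZNF598 at 0 h, was lower without overlap at 5 of 5 times, and had an averaged difference of -0.29 ± 0.06 (adjusted p = 0.00057).

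DICER1, the cytoplasmic nuclease, was higher by a small margin. It measured 33.2 and 21.5 CPM in shControl and 28.7 and 30.3 CPM in shZNF598 at 0 h, and 25.7 and 24.6 against 32.4 and 26.7 CPM at 10 h. At 3 of 5 times the shZNF598 libraries were higher without overlap. In the average, 3 of the 11 tested DICER1 rows were called higher. The averaged difference was 0.18 ± 0.06 (1.14-fold, adjusted p = 0.0406). This call was unstable: it was kept in 13 of 28 alternatives, and leaving out single libraries of either shRNA moved the difference between 0.13 and 0.25 and removed the call in 14 of 20 fits.

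The microprocessor and the export step showed smaller differences that did not pass. DROSHA measured 12.7 and 6.58 CPM in shControl and 8.59 and 8.33 CPM in shZNF598 at 0 h, and its averaged difference was -0.10 ± 0.08 (adjusted p = 0.426). Without replicate 2 of shControl at 0 h it was -0.18 and called (adjusted p = 0.0274). DGCR8 measured 11.3 and 8.79 against 9.88 and 10.2 CPM at 0 h, with an averaged difference of 0.08 ± 0.06 (95% interval -0.04 to 0.19, adjusted p = 0.369). XPO5 measured 33.5 and 31 against 28.1 and 29.9 CPM at 0 h. In the average, 3 of the 12 tested XPO5 rows were called lower. Its shZNF598 libraries were lower without overlap at 4 of 5 times, but the averaged difference was only -0.11 ± 0.04 (0.927-fold, adjusted p = 0.0708). It passed with DESeq2 (-0.11), with at least 5 CPM (-0.11), with 1 row per gene (-0.12) and without replicate 2 of shControl at 0 h (-0.12) or replicate 1 of shZNF598 at 4 h (-0.13).

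**Figure D2:**
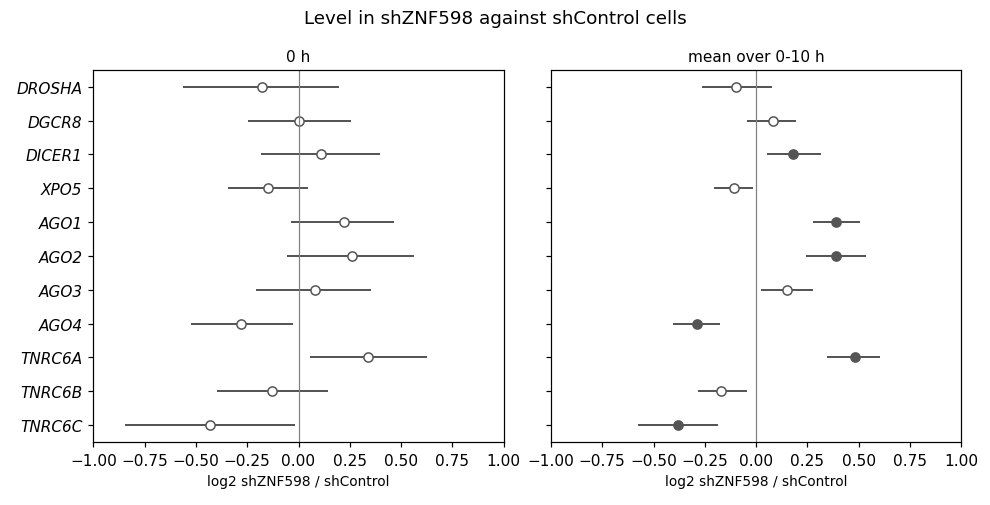
Log2 ratio of shZNF598 to shControl on the x axis for the 10 members and AGO4, at 0 h (left) and as the mean over 0 to 10 h (right). Points are edgeR estimates with 95% intervals, filled where the adjusted p was under 0.05. No gene was called at 0 h, and the averaged differences ran from -0.38 for TNRC6C to 0.48 for TNRC6A.

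At 0 h alone, before any chase, 0 of 10 members were called, against 0.407% of all transcripts. In edgeR, an unadjusted p below 0.05 was met by 8069 of 79513 transcripts, 1246 of 10731 gene rows and 1 member. That gene was TNRC6A, at 0.34 ± 0.14 (adjusted p = 0.405). AGO1 (0.22 ± 0.13) and AGO2 (0.26 ± 0.16) had the same sign at 0 h as in the average. Here replicates 1 and 2 of shControl at 0 h decided the outcome. Without replicate 1, TNRC6A was called at 0.69, and without replicate 2, DROSHA was called at -0.58 and TNRC6C at -0.75. By contrast, the averaged differences computed from the 2 to 10 h libraries alone were 0.50 for TNRC6A, 0.43 for AGO1, 0.42 for AGO2, 0.20 for DICER1 and -0.37 for TNRC6C, each still past the threshold. TNRC6B was called there as well (-0.18, adjusted p = 0.0297).

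The next question was how fast each mRNA was lost. Scaling sets the bulk of transcripts to no change, so a slope of 0 is the pace of the bulk, a positive slope is slower loss than the bulk and a negative slope is faster loss. In shControl cells, DROSHA and XPO5 had positive slopes and AGO1, AGO2, AGO3 and TNRC6A negative ones. These 2 and 4 calls stand against 33.5% of all transcripts called higher and 40.8% called lower, and against 25.4% and 52.5% of the gene rows. In shZNF598 cells, DROSHA and XPO5 were called higher and AGO2 and AGO3 lower, against 32.7% and 38.5% of all transcripts and 25.3% and 49.3% of the gene rows. The median slope of the members was -0.0346 in shControl and -0.0128 in shZNF598 cells (log2 per hour), beside -0.0178 and -0.0144 over all transcripts and -0.0574 and -0.0488 over the gene rows. The bulk of all transcripts, which include many isoform rows, thus had a less negative slope than the typical gene row.

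DROSHA and XPO5 were the slow-decaying members. DROSHA rose from 12.7 and 6.58 CPM at 0 h to 16.1 and 13.5 CPM at 10 h in shControl, and from 8.59 and 8.33 to 15.4 and 13.9 CPM in shZNF598. The 24 h libraries held 20.3 and 21.5 CPM. In log2 per hour, the slope came to 0.071 ± 0.018 in shControl (adjusted p = 0.00162) and 0.082 ± 0.018 in shZNF598 (adjusted p = 0.000502). Each of these calls was lost under 2 of 31 alternatives.
XPO5 rose from 33.5 and 31 to 46.3 and 48.5 CPM at 6 h in shControl, and from 28.1 and 29.9 to 44.9 and 45.2 CPM in shZNF598. The groups at 0 and 6 h did not overlap in either cell population. Loss was slower than in the bulk by 0.049 ± 0.015 log2 per hour in shControl and by 0.050 ± 0.015 in shZNF598 (adjusted p = 0.00533 and 0.00607). The slopes were 0.0227 and 0.026, not called, when the bulk was set by transcripts averaging 5 CPM or more. Of 31 alternatives, 4 lost the call in shControl and 3 that in shZNF598.

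AGO2 was lost faster than the bulk of all transcripts, at a pace near the median of the gene rows. In shControl it went from 35.2 and 23.4 CPM at 0 h to 23.2 and 19.3 at 6 h and 20.9 and 17.4 at 10 h, and in shZNF598 from 35.1 and 34.9 to 31 and 27.7 and then 28.6 and 22.9 CPM. Single 24 h libraries held 18.9 and 23.5 CPM. The slope reached -0.065 ± 0.016 in shControl and -0.048 ± 0.016 in shZNF598 (adjusted p = 0.000848 and 0.0111). Without replicate 2 of shZNF598 at 10 h the slope in shZNF598 was -0.0342 and no longer called. It was also lost with 1 row per gene in the fit (-0.0223) and in the 0 to 4 h (-0.0058) and 0 to 6 h (-0.0389) windows, and the call in shControl was lost in the 0 to 4 h window (-0.0771).
The slopes of AGO3 were -0.038 ± 0.013 and -0.037 ± 0.014, and that of AGO1 in shControl was -0.035 ± 0.013 (adjusted p = 0.0143, 0.0197 and 0.0226). All 3 were less negative than the medians of the gene rows, -0.0574 in shControl and -0.0488 in shZNF598. With 1 row per gene in the fit, the number of called members fell from 6 to 3 in shControl and from 4 to 2 in shZNF598. Of 31 alternatives, 7 lost the AGO3 call in each cell population and 8 lost the AGO1 call in shControl. These 3 calls depended on the scaling and were lost with RLE factors (median-of-ratios scaling of the libraries), at -0.0262, -0.0278 and -0.0228. Those in shControl were also lost without replicate 1 of shControl at 0 h, at -0.0244 for AGO3 and -0.0256 for AGO1. AGO1 in shControl was lost without replicate 2 at 10 h too (-0.0276), and AGO3 in shZNF598 without replicate 2 of its 10 h libraries (-0.0251). In shZNF598 cells AGO1 had a slope of -0.002 ± 0.013, which turned positive with RLE factors (0.0079). DICER1 was not called in either cell population, at -0.016 ± 0.014 in shControl and -0.003 ± 0.014 in shZNF598, the latter 0.0067 with RLE factors. In shControl it was called at -0.0327 without replicate 2 of shControl at 0 h (adjusted p = 0.0191) and at -0.0422 with at least 5 CPM. TNRC6A had a slope of -0.068 ± 0.027 in shControl (adjusted p = 0.0296), which was -0.0368 and not called without replicate 1 of shControl at 0 h, and -0.0561 and not called with RLE factors. This TNRC6A call was lost under 6 of 31 alternatives. In shZNF598 its slope of -0.060 ± 0.028 missed the threshold (adjusted p = 0.0564). It passed without replicate 1 of shZNF598 at 10 h (-0.0869, adjusted p = 0.0233), and by a small margin without replicate 1 of shControl at 0 h (-0.0603), replicate 2 at 6 h (-0.0602) or replicate 1 at 10 h (-0.0602). It also passed with no filter (-0.0579) and at -0.0832 with at least 5 CPM.
TNRC6B (-0.057 ± 0.033 and -0.073 ± 0.034), TNRC6C (-0.034 ± 0.033 and -0.016 ± 0.034) and DGCR8 (-0.020 ± 0.028 and -0.010 ± 0.028) were not called in shControl or shZNF598. TNRC6B was near the threshold in shZNF598 (adjusted p = 0.0576). It passed there without either library of shZNF598 at 10 h (-0.0965 and -0.0986), and by a small margin at -0.073 without replicate 1 of shControl at 0 h or 10 h or replicate 2 at 6 h. It passed in shControl without replicate 1 of shControl at 10 h (-0.0936). Over 0 to 6 h alone, the slopes in shControl and shZNF598 were called for TNRC6B (-0.2269 and -0.2157), TNRC6C (-0.1392 and -0.1421) and DGCR8 (-0.139 and -0.1441), and that of TNRC6A in shZNF598 was called at -0.1669.

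**Figure D3:**
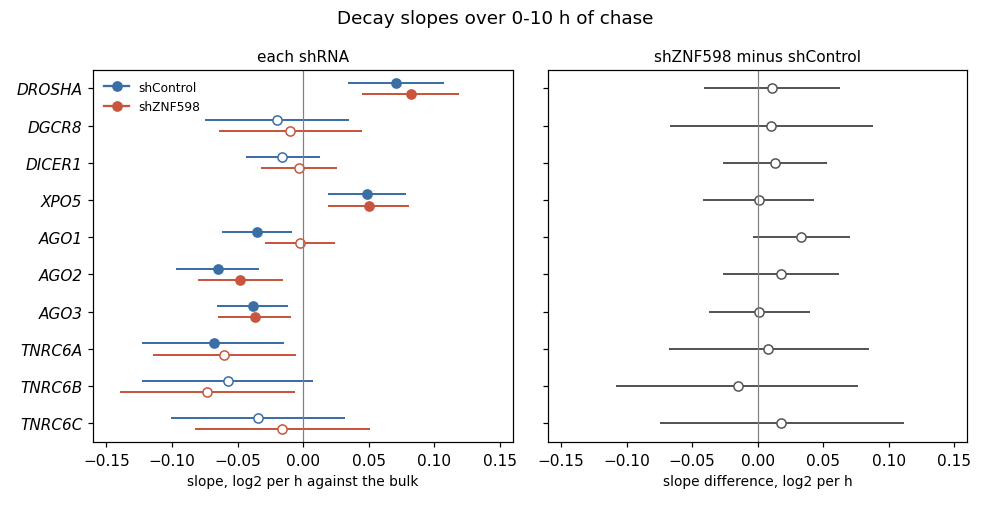
Slope of the log2 level on hours of chase, relative to the bulk, for the 10 members in shControl (blue) and shZNF598 (red) cells on the left, and the difference between them on the right, in log2 per hour on the x axis. Points are edgeR estimates with 95% intervals, filled where the adjusted p was under 0.05. The intervals of the 2 shRNAs overlap for every member, and no difference was called.

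The slopes did not differ detectably between the shRNAs. Of the members, 0 of 10 were called in edgeR for the slope difference, against 0.116% of all transcripts, and 0 had an unadjusted p below 0.05. The DESeq2 fit also called 0 members, against 519 of all transcripts. In edgeR, 4397 of 79513 transcripts and 548 of 10731 gene rows had an unadjusted p below 0.05. The difference was farthest from 0 for AGO1, at 0.033 ± 0.019 log2 per hour (95% interval -0.003 to 0.070, adjusted p = 0.992). It was 0.018 ± 0.022 for AGO2 (-0.026 to 0.061) and 0.008 ± 0.039 for TNRC6A (-0.067 to 0.084). Thus the genes whose level was higher in shZNF598 cells had no slope difference that could be resolved with these libraries. The intervals for TNRC6B (-0.107 to 0.076) and TNRC6C (-0.074 to 0.111) were the widest.

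A straight line did not describe every member, so the level was also compared between 0 and 6 h and between 6 and 10 h, averaged over both shRNAs. These comparisons were added after the values had been seen. DGCR8 and all 3 TNRC6 genes fell against the bulk to 6 h and then rose to 10 h. From 0 to 6 h, 2 members were called higher and 5 lower, against 37.7% and 39.2% of all transcripts and 30.3% and 51.4% of the gene rows. The median change to 6 h was -0.29 over the members and -0.26 over the gene rows. From 6 to 10 h, 5 were called higher and 1 lower, against 32.1% and 27.7% of all transcripts and 32.7% and 30.8% of the gene rows.

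TNRC6B had the deepest dip. Its shControl libraries went from 38.5 and 27.8 CPM at 0 h to 17 and 15.1 at 4 h, 16 and 11.8 at 6 h and 25 and 22 at 10 h. The shZNF598 libraries went from 30.2 and 30.5 to 14.3 and 15.2, then 13.6 and 12.7, and back to 18.8 and 19.2 CPM. In both cell populations, the 6 h libraries lay below those of 0 h and 10 h. The log2 change was -1.23 ± 0.10 to 6 h (0.427-fold, adjusted p = 3.32e-11) and 0.64 ± 0.10 from 6 to 10 h (1.56-fold, adjusted p = 4.47e-06).
TNRC6A fell from 20.2 and 13 CPM at 0 h to 7.8 and 7.01 at 6 h in shControl, and from 21.5 and 20.5 to 12 and 10.5 CPM in shZNF598. At 10 h it was back at 11.5 and 9.91 CPM and at 15.5 and 13.9 CPM. The changes were -1.03 ± 0.10 and 0.46 ± 0.11 (adjusted p = 2.41e-09 and 0.000593). The 10 h libraries thus lay above the 6 h libraries and below those of 0 h in both cell populations.
DGCR8 fell from 11.3 and 8.79 to 5.49 and 5.77 CPM at 6 h in shControl, and from 9.88 and 10.2 to 5.35 and 5.84 CPM in shZNF598. At 10 h the values were 9.31 and 7.8 CPM and 8.9 and 10.3 CPM, and at 24 h 12.5 and 17.1 CPM. The changes were -0.84 ± 0.09 and 0.69 ± 0.09 (adjusted p = 9.27e-09 and 7.09e-07), so that the level at 10 h overlapped the level at 0 h in both cell populations. For DGCR8, TNRC6A and TNRC6B, both calls were kept under all 27 alternatives.
TNRC6C changed by -0.74 ± 0.15 and 0.46 ± 0.16 (adjusted p = 0.000114 and 0.0148). The late rise was lost without replicate 1 of shControl at 10 h (0.32) or replicate 2 of shControl at 6 h (0.37).

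The other members had simpler courses. XPO5 rose by 0.59 ± 0.07 to 6 h (1.51-fold, adjusted p = 2.83e-08) and then changed by -0.17 ± 0.07 (adjusted p = 0.0344), and that late call was lost under 8 of 27 alternatives, including RLE scaling (-0.09) and leaving out any 1 of 6 libraries of 6 or 10 h (-0.18 to -0.15). DROSHA rose in both intervals, by 0.36 ± 0.13 and 0.34 ± 0.13 (adjusted p = 0.0162 and 0.028). Single libraries decided these calls. The early one was lost without replicate 2 of shControl at 0 h (0.17), replicate 1 of shControl at 6 h (0.32) or replicate 2 of shZNF598 at 6 h (0.33), and the late one without any 1 of 4 libraries of 6 or 10 h (0.28 to 0.31). AGO2 fell by 0.36 to 6 h (adjusted p = 0.00548), a call lost without replicate 1 of shControl at 0 h (-0.20) and with 1 row per gene (-0.11). AGO1, AGO3 and DICER1 passed in neither interval, with changes between -0.22 and 0.02, but for the early interval single libraries decided this too. AGO3 was called without replicate 2 of shControl at 0 h (-0.33, adjusted p = 0.00144), replicate 1 of shControl at 6 h (-0.29), replicate 1 of shZNF598 at 6 h (-0.28) or either library of shZNF598 at 10 h (-0.22). AGO1 was called without replicate 2 of shControl at 0 h (-0.18, adjusted p = 0.0427) and DICER1 without replicate 1 of that group (0.20, adjusted p = 0.0396). With at least 5 CPM, AGO1 (-0.27) and AGO3 (-0.41) were called, and with 1 row per gene DICER1 (0.27). DICER1 held 33.2, 21.5, 28.7 and 30.3 CPM in the 4 libraries of 0 h and 31.8 and 31.3 CPM in the 24 h libraries.

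**Figure D4:**
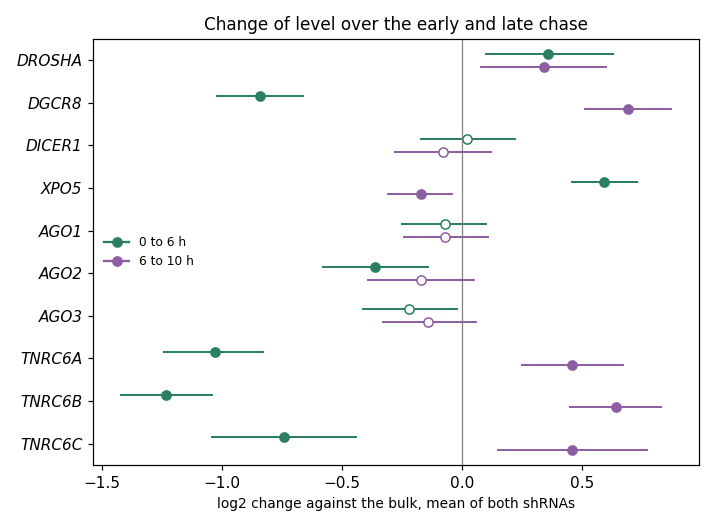
Log2 change of level against the bulk from 0 to 6 h (green) and from 6 to 10 h (purple) on the x axis, averaged over both shRNAs, for the 10 members. Points are edgeR estimates with 95% intervals, filled where the adjusted p was under 0.05. DGCR8 and the 3 TNRC6 genes moved down and then up, between -1.23 and -0.74 and between 0.46 and 0.69.

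A further 20 genes of the pathway, partners and regulators of microRNA maturation and silencing, were read in the same fits. For the level averaged over the chase, 3 of 20 were called higher and 4 lower. The shares were 12.3% and 10.1% of all transcripts and 15.6% and 12.1% of the gene rows. The higher genes were TARBP2, the partner of DICER1 (0.29 ± 0.06), and the RNA-binding proteins FMR1 (0.23 ± 0.06) and FXR1 (0.24 ± 0.05). The lower genes were AGO4, TRIM71, a known target of the microRNA let-7 (-0.41 ± 0.08), the splicing and decay factor KHSRP (-0.24 ± 0.07) and the nuclease SND1 (-0.14 ± 0.05). None of the 20 was called at 0 h in edgeR, against 0.407% of all transcripts. An unadjusted p below 0.05 was met there by 4 of the 20, beside 8069 of 79513 transcripts and 1246 of 10731 gene rows. In shControl cells 6 of 20 had a positive and 8 a negative slope, against 33.5% and 40.8% of all transcripts and 25.4% and 52.5% of the gene rows. In shZNF598 cells these were 6 and 6, against 32.7% and 38.5% of all transcripts and 25.3% and 49.3% of the gene rows. The most positive was SND1, at 0.149 ± 0.012 and 0.146 ± 0.012 log2 per hour, and the most negative TRIM71, at -0.209 ± 0.040 and -0.209 ± 0.041. The slope difference was called in 0 of 20, against 0.116% of all transcripts. An unadjusted p below 0.05 was met by 0 of the 20 and by 548 of 10731 gene rows.

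Profiles of other genes were set beside DICER1 and AGO2 over the 10 group means of 0 to 10 h, after subtracting each gene's own mean. Among 10730 other genes with 1 row each, PHIP was the closest to DICER1, with a root mean square difference of 0.05 on the log2 scale. LIMS3 and LIMS4 followed (0.053). Only reads placed at 1 locus were kept, and why these near-identical copies gave the same distance was not tested. The median over all genes was 0.405. Closest to AGO2 were ZER1 (0.07), MAP7 (0.08) and VAPB (0.082), with a median of 0.433. These distances are descriptions over 10 groups that share the same libraries.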

How the data were processed

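BRIC-Seq libraries of HEK293T cells were analysed from raw read counts per transcript, 1 file per library, as deposited by the authors. Per the methods and the submitters' processing notes (which name CASAVA 1.8 and STAR 2.7.0a), fastp trimmed the reads, those mapping to noncoding RNA were discarded, and the remaining reads were aligned to hg38 with GENCODE release 32, allowing 1 mismatch and 1 locus, and counted with featureCounts. The strand setting is not given in the sources used here. Each file also gives the transcript's length divided by a constant, used only for levels per kilobase and to check identifiers.

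Identifiers were named with GENCODE release 44 (GRCh38): 92.2% had the same version, 98.4% matched when versions were ignored, and the others held 2.2% of the counts.

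Counts were analysed with edgeR 4.0.16 in R 4.3.3. The 79513 transcripts averaging 1 CPM or more across 20 libraries (0 to 10 h) were scaled by TMM, which sets the bulk to no change. The BrU spike-ins were not used here, so no half-life is given. A model with 1 mean per group gave levels, and a model with shRNA, hours and their product gave slopes, tested by quasi-likelihood with p-values adjusted by Benjamini-Hochberg over all transcripts. The SE is the log2 change divided by the root of F. The 95% intervals take a normal quantile of that SE, so they can be narrower than the test implies. At 0 h the interval of TNRC6C (-0.84 to -0.02) excluded 0 at an unadjusted p of 0.0517 in the quasi-likelihood test. The 24 h libraries, 1 per shRNA, entered only 1 alternative. Both models recovered changes in simulated counts. Those changes were larger than any difference between the shRNAs among the members, so the power to find differences of that size was not measured. The main fits did not pair libraries by replicate number. The members and lists were chosen with earlier results of these data known. The text names all members, ZNF598, AGO4, the listed pathway genes called for a level or slope difference, the extreme slopes of that list, and the 3 nearest profiles of DICER1 and AGO2.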

Additional observations from a re-analysis of the deposited data

How the results depend on the processing

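Alternatives were library scaling by RLE, no filter on low counts, a mean of at least 5 CPM, DESeq2, 1 row per gene, the canonical transcript, other chase windows, a replicate block and leaving out each of 20 libraries; the comparisons between 0, 6 and 10 h and the fit of the 2 to 10 h libraries alone were added after the data were seen. The calls for the averaged level of TNRC6A, AGO1, AGO2 and TNRC6C and for the early changes of DGCR8, XPO5, TNRC6A, TNRC6B and TNRC6C were kept under every alternative that gave a value. TNRC6C gave no value for its canonical transcript or with at least 5 CPM, a mean its row did not reach. The causes of the shifts given here were not tested. Depth limits TNRC6C most, with 167 to 596 counts per library, and 2 libraries per group limit the level at 0 h.

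Counts of called members moved for the slope in shControl from 6 to 3 with RLE scaling, DESeq2, 1 row per gene or the 0 to 24 h window, and for the slope in shZNF598 from 4 to 2 with 1 row per gene. In the pathway list the slope in shControl went from 14 to 6 (0 to 4 h) and 5 (0 to 24 h), and the slope in shZNF598 from 12 to 6 (0 to 4 h) and 6 (0 to 24 h). Leaving out single libraries gave 0 to 2 called members for the level at 0 h (pathway list 0 to 3), 3 to 7 for the slope in shControl and 3 to 6 for the change from 6 to 10 h. The lowest counts came without replicate 1 of shControl at 0 h for the slope, and without replicate 2 of shControl at 6 h or replicate 1 at 10 h for the late change.

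The labels do not say whether replicate numbers pair the libraries, and the main fits did not pair them. The correlation between shRNAs of the differences between replicates was -0.005, 0.119, 0.35, 0.298 and -0.228 at 0, 2, 4, 6 and 10 h, so it differed in sign between times. With the replicate block, TNRC6B passed for the averaged level (-0.16, adjusted p = 0.0397) and AGO3 for the change from 0 to 6 h (-0.22, adjusted p = 0.0288), the AGO3 slope difference turned to -0.0007, and no other member's call changed.

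The sign turned only for values that were not called, as follows. The level of DGCR8 at 0 h was -0.01 with at least 5 CPM and -0.03 from the 0 h libraries alone. With RLE scaling and with DESeq2, respectively, the slope in shZNF598 was 0.0002 and 0.0007 for DGCR8, 0.0067 and 0.0068 for DICER1 and 0.0079 and 0.008 for AGO1, the slope difference was -0.0019 in both for XPO5 and -0.0016 and -0.0013 for AGO3, and the change of AGO1 from 6 to 10 h was 0.02 in both. Without a filter, AGO1 had a slope of 0.0009 in shZNF598 and a change of 0.04 from 0 to 6 h, and the slope difference was -0.002 for XPO5 and -0.0014 for AGO3. With at least 5 CPM, DICER1 changed by -0.17 from 0 to 6 h. With 1 row per gene, the slope in shControl was 0.0076 for DGCR8 and 0.0128 for DICER1, the slope in shZNF598 was 0.0147 for DGCR8, 0.0224 for DICER1, 0.0235 for AGO1 and 0.0088 for TNRC6C, the slope difference was -0.0024 for XPO5 and -0.0021 for AGO3, and the change from 0 to 6 h was 0.17 for AGO1 and 0.03 for AGO3.

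In the 0 to 4 h window, the slope in shZNF598 was 0.0273 for DICER1 and 0.0549 for AGO1, and the slope difference was 0.0086 for TNRC6B and -0.0044 for TNRC6C. In the 0 to 6 h window, these were 0.0095, 0.0114, 0.0112 and -0.0029, and the slope difference of DGCR8 was -0.005. In the 0 to 24 h window, the slope in shControl was 0.0214 for DGCR8, 0.0044 for DICER1 and 0.0117 for TNRC6C, the slope in shZNF598 was 0.0382 for DGCR8 and 0.0104 for TNRC6C, and the slope difference was -0.0052 for DICER1, -0.0139 for AGO3, -0.0006 for TNRC6A and -0.0013 for TNRC6C. In the 2 to 10 h window, the slope in shControl was 0.0321 for DGCR8 and 0.0183 for TNRC6C, the slope in shZNF598 was 0.0323 for DGCR8 and 0.0366 for TNRC6C, and the slope difference was -0.0094 for XPO5, -0.0116 for AGO3 and -0.0093 for TNRC6A.

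Leaving out single libraries turned the sign of values that were not called, in all fits and members listed here, and none was called where its sign had turned. The lowest DROSHA values at 0 h and in the average, the highest DICER1 and the lowest AGO1 change from 0 to 6 h kept their sign and passed the threshold. The level at 0 h ran from -0.58 to 0.36 for DROSHA, -0.17 to 0.19 for DGCR8, -0.17 to 0.45 for DICER1, 0.00 to 0.48 for AGO1, -0.01 to 0.58 for AGO2, -0.16 to 0.36 for AGO3 and -0.34 to 0.13 for TNRC6B, and the averaged level of DROSHA from -0.18 to 0.01. The slope in shControl ran from -0.0528 to 0.0075 for DGCR8 and -0.0768 to 0.0059 for TNRC6C, and in shZNF598 from -0.042 to 0.0065 for DGCR8, -0.0105 to 0.0099 for DICER1, -0.0078 to 0.009 for AGO1 and -0.0432 to 0.0078 for TNRC6C. The slope difference ran from -0.0221 to 0.0282 for DROSHA, -0.022 to 0.0433 for DGCR8, -0.0003 to 0.0298 for DICER1, -0.0102 to 0.0163 for XPO5, -0.0129 to 0.0133 for AGO3, -0.0235 to 0.0413 for TNRC6A, -0.0435 to 0.0207 for TNRC6B and -0.0219 to 0.0608 for TNRC6C. The change from 0 to 6 h ran from -0.12 to 0.20 for DICER1 and -0.18 to 0.06 for AGO1.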
